A study of Arabidopsis thaliana with 8 samples.

Results

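Small RNA pathway genes were followed in ribosome footprints of Arabidopsis thaliana inflorescences. The set held 10 genes, chosen by locus identifier and not by a measured value, though with earlier results of these data known. It comprised the Argonautes AGO1 (AT1G48410), AGO2 (AT1G31280), AGO4 (AT2G27040), AGO5 (AT2G27880), AGO9 (AT5G21150) and AGO10 (AT5G43810), the RNA-dependent RNA polymerases RDR1 (AT1G14790) and RDR2 (AT4G11130), the Dicer-like protein DCL1 (AT1G01040) and the methyltransferase HEN1 (AT4G20910). Footprint lines were found for 9 of the 10, among 22384 nuclear genes used in all. AGO10 was not analysed here.

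In plants, Dicer-like proteins cut double-stranded RNA or hairpin precursors into small RNAs, HEN1 methylates their 3′ ends, and Argonautes bind them and act on matching RNA or chromatin. RNA-dependent RNA polymerases make the double-stranded RNA from which small interfering RNAs are cut. DCL1 and AGO1 serve mainly the microRNA branch. RDR2 and AGO4 serve RNA-directed DNA methylation, RDR1 and AGO2 are known for antiviral silencing, and AGO5 and AGO9 are known from germ line and ovule tissue.

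Each of 4 genotypes in the Columbia background was represented by 2 libraries. WT was the unmutated parent, Col-0. The hot3-2 line carried a T-DNA insertion in HOT3, which encodes the initiation factor eIF5B1 that helps the large ribosomal subunit join at the start codon. The dcl2 dcl4 line was mutated in the Dicer-like genes DCL2 and DCL4, with dcl2-1 and dcl4-2 as the alleles, and hot3-2 dcl2 dcl4 combined all 3 mutations by crossing and is called the triple mutant. HOT3, DCL2 and DCL4 are not among the 10 genes. The labels did not say whether the 2 libraries of a genotype came from separate plants, so p-values measured the spread between these libraries, which may be technical. Carriers are the 4 libraries with the hot3-2 allele, and non-carriers the other 4.

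A footprint was counted at its P site, the ribosomal position that holds the growing chain. Libraries held 1197157 to 2839839 P sites on nuclear coding sequences, with 1197157 to 1980798 in carriers and 2067581 to 2839839 in non-carriers. HOT3 had 284, 370, 306 and 339 P sites in the non-carriers and 74, 69, 50 and 39 in the carriers, so that carriers and non-carriers did not overlap. DCL2 had at most 3 and DCL4 at most 10 coding-sequence P sites in any library, which did not allow a check of that genotype. The deposited P site of 21 nt footprints lay 9 nt from their first nucleotide in both dcl2 dcl4 libraries and in triple mutant replicate 1, and 12 nt in the other libraries. Of the 5 floral identity genes examined for the tissue, 4 had lines that were used. AP1 and AG contributed no coding-sequence P site, and for a gene without lines this does not show a lack of translation. The other genes summed to a CPM (P sites per 1000000 scaled coding-sequence P sites of a library) of 535 to 615 in non-carriers and 400 to 481 in carriers. Of these, 2 of the 3 tested were called lower in the mean hot3-2 effect (limma voom).

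How much of each coding sequence the lines covered was examined first, because it decided which values could be compared. AGO2, AGO5, AGO9, RDR1 and RDR2, each with 1 annotated mRNA, were covered almost to the stop codon. In AGO9, for example, the last P site of a library fell on codon 859 to 895 of 897. AGO1, AGO4, DCL1 and HEN1 have 2 or 3 annotated mRNAs, and their lines lay in the first part of the coding sequence. By the deposited distances, the last P site lay on codon 68 to 70 of 1051 in AGO1, 39 to 111 of 925 in AGO4, 287 to 382 of 1911 in DCL1 and 184 to 230 of 943 in HEN1. The same split ran through the files. Among genes with at least 100 coding-sequence P sites in WT replicate 1, the last P site lay before the midpoint of the coding sequence in 36.1% of 1094 genes with 2 or more annotated mRNAs and in 0.0848% of 3537 genes with 1. The share in genes with more mRNAs was 32.4% to 36.1% over the 8 libraries. How footprints shared by several mRNAs were assigned is not given in the sources used here, and its part in the early ends was not tested. Levels of AGO1, AGO4, DCL1 and HEN1 therefore describe the start of the coding sequence, and their per-length values were not set beside those of the other genes.

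**Figure D1:**
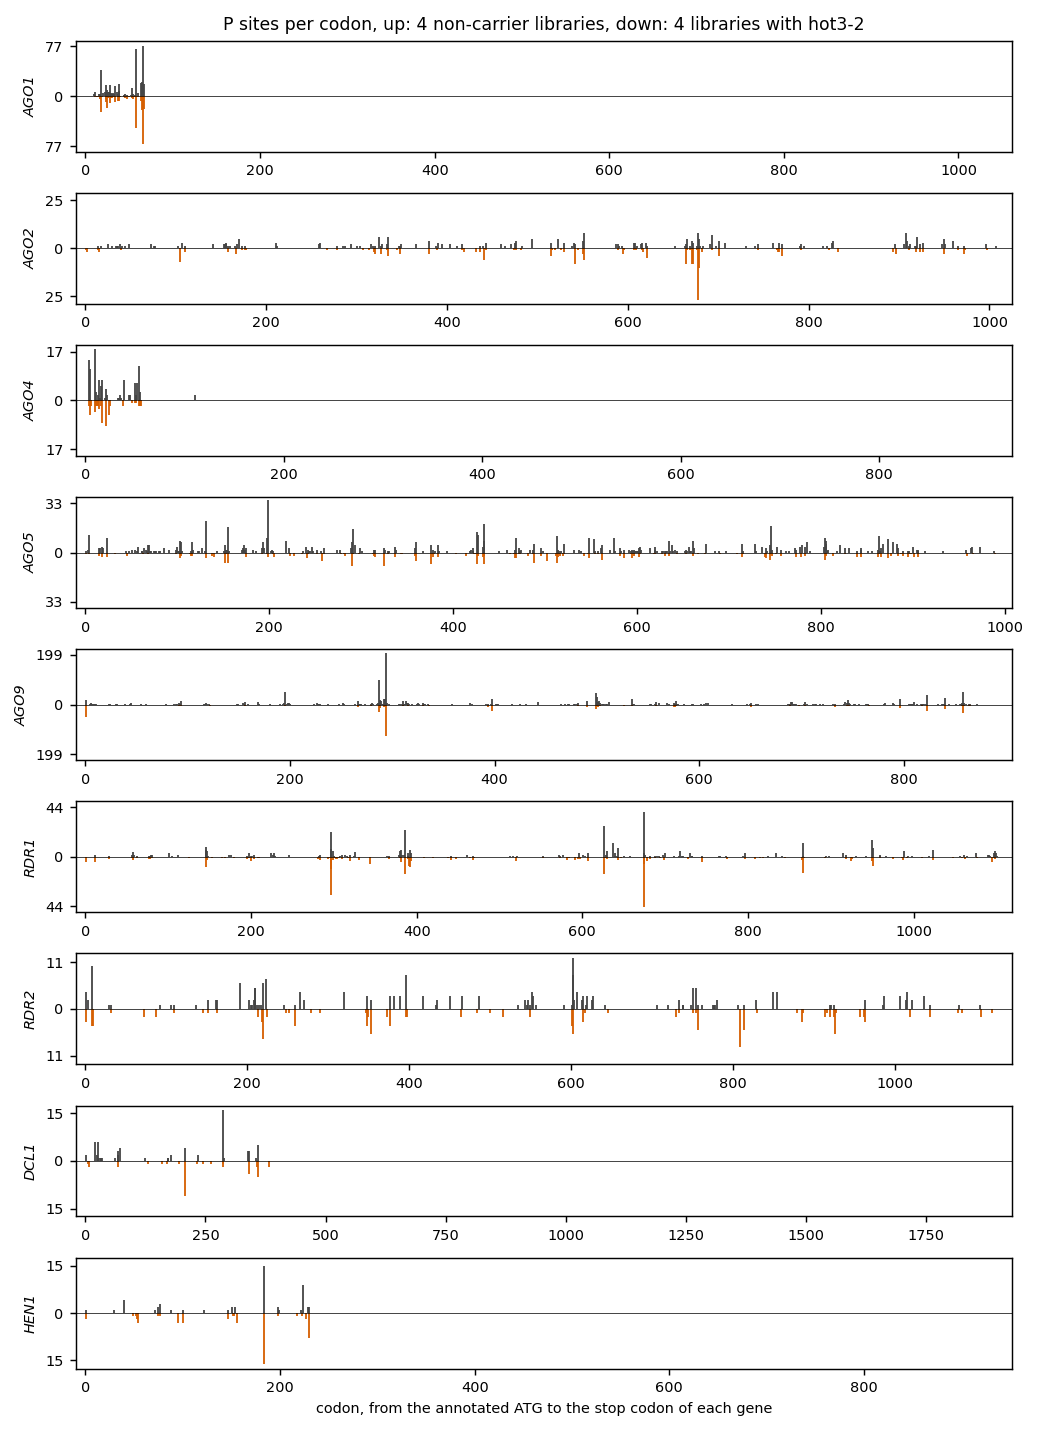
P sites per codon along the coding sequence of the 9 genes. The x axis gives the codon from the annotated ATG, the y axis the number of P sites, upward summed over the 4 non-carrier libraries and downward over the 4 carrier libraries. AGO1, AGO4, DCL1 and HEN1 hold lines in the first part alone, and AGO9 has its highest column at codon 294.

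The reading frame gave a second check. In 28 nt footprints, 91.0% to 97.8% of the P sites of AGO2, AGO5, AGO9, RDR1, RDR2, DCL1 and HEN1 lay in frame. In AGO1 5 of 338 did when the deposited start was used, because the deposited 5′ UTR of 169 nt was 8 nt shorter than the annotated one. Counted from the annotated ATG, 320 of 338 AGO1 P sites were in frame, so AGO1 codons are numbered from there. In AGO4 the deposited 5′ UTR was 3 nt shorter than annotated and 3 of 59 P sites were in frame from either start, and no codon of AGO4 is named. Both genes are left out of the statements on start codons below. None of the 9 genes had a P site in the 3′ UTR.

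Among the 5 genes covered throughout, AGO9 was the most highly occupied. Levels are P sites per kb of coding sequence per 1000000 nuclear coding-sequence P sites of a library, without the scaling used for CPM. They are given as mean ± SD over 2 libraries. In WT, AGO9 stood at 55.8 ± 1.61, AGO5 at 28.4 ± 4.28, RDR1 at 11.9 ± 1.63, AGO2 at 11.6 ± 0.103 and RDR2 at 6.63 ± 0.736. The libraries of neighbouring genes in this order did not overlap in WT, apart from those of RDR1 and AGO2. The order of AGO5 and RDR1 was less clear in carriers. In hot3-2 AGO5 stood at 18.8 ± 1.82 and RDR1 at 17.8 ± 5.44, and in the triple mutant AGO5 stood at 19.3 ± 2.24 and RDR1 at 21.2 ± 2.62, with overlapping libraries in both genotypes. In dcl2 dcl4, where AGO5 stood at 29.1 ± 4.86 and RDR1 at 15.2 ± 0.590, they did not overlap. AGO9 remained first and RDR2 last in each of the 4 genotypes.

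**Figure D2:**
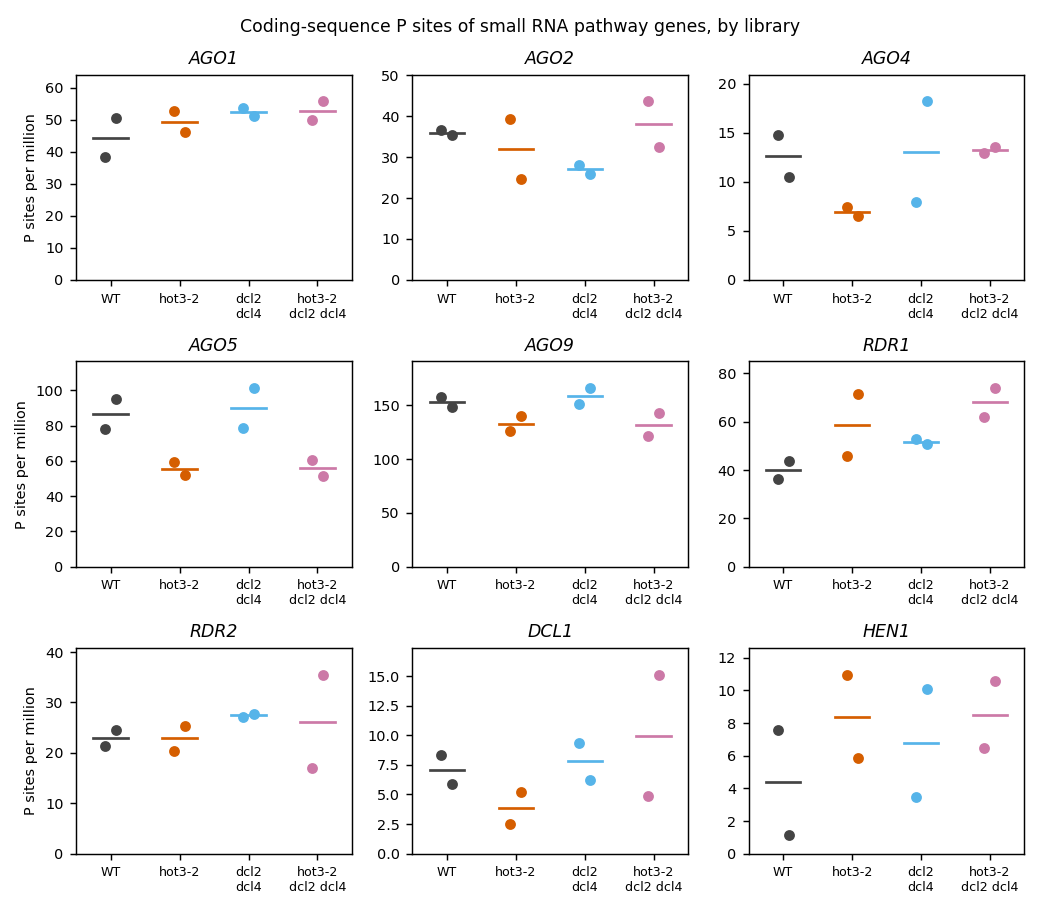
CPM of coding-sequence P sites of the 9 genes, after library scaling. Each point is 1 library and each line the mean of the 2 libraries of a genotype. The 4 carrier libraries of AGO5 lie between 51.3 and 60.6, below the 4 non-carrier libraries at 78.1 to 101.

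The effect of hot3-2 on footprint counts was asked first, as the mean over both backgrounds. Footprints of AGO5 fell and those of RDR1 rose, and the other 7 genes did not pass the test. Over all 13303 genes tested, 17.8% were called, so 2 of 9 genes lay close to the background. The median log2 fold change of the 9 genes was -0.08, beside -0.02 over all genes.

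AGO5, an Argonaute known from sperm cells and from cells around the megaspore, lies at chr2:11871378-11876989 on the plus strand (TAIR10.1). It had a CPM of 78.1 and 95.1 in the WT libraries, and 59.2 and 52.0 with hot3-2. In the dcl2 dcl4 background its CPM was 78.5 and 101 without hot3-2 and 60.6 and 51.3 with it. The 4 carrier libraries were thus below the 4 non-carrier libraries. The mean hot3-2 effect on the log2 scale was -0.65 ± 0.14 (SE, 8 libraries, adjusted p = 3.55e-04, limma voom with Benjamini-Hochberg adjustment). No overlap in this direction was seen in 8.83% of all genes tested, and among the 9 genes in AGO5 and AGO9.

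RDR1, which copies viral and other RNA into double strands, lies at chr1:5093961-5098270 on the minus strand. It had a CPM of 36.5 and 43.6 in the WT libraries, and 45.8 and 71.4 with hot3-2. Values of 52.8 and 50.8 in dcl2 dcl4 stood beside 62.2 and 73.9 for the triple mutant. Carriers and non-carriers overlapped, through hot3-2 replicate 1. No overlap with carriers higher was seen in 7.13% of all genes and in none of the 9. The mean hot3-2 effect was 0.44 ± 0.16 (SE, 8 libraries, adjusted p = 0.0381, limma voom). This call was lost in 10 of 20 alternatives, among them leaving out hot3-2 replicate 2, WT replicate 1, triple mutant replicate 2 or either dcl2 dcl4 library, with log2 values of 0.31 to 0.63 over the 8 libraries left out in turn.

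AGO9, an Argonaute known from ovules where it limits the number of germ cell precursors, lies at chr5:7192239-7198381 on the plus strand. It had a CPM of 157 and 148 in the WT libraries, and 126 and 140 with hot3-2. Values of 152 and 166 in dcl2 dcl4 stood beside 121 and 143 for the triple mutant. All 4 carrier libraries were below the 4 non-carrier libraries, but the difference did not pass the test (log2 -0.24 ± 0.10, SE, 8 libraries, adjusted p = 0.104, limma voom).

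Summed tapetum and pollen markers were also lower in all carriers than in all non-carriers. Those of ovule and carpel, meiocytes and meristem overlapped. The part of cell types in the AGO5 and AGO9 values was not tested. Of 10 tapetum genes, 9 were called lower in the mean hot3-2 effect, where 9.61% of all genes were. The 10 summed to a CPM of 1187 to 1252 in non-carriers and 635 to 723 in carriers. The 3 pollen genes summed to 1397 to 2109 and to 626 to 848, with 1 called lower. The 6 ovule and carpel genes summed to 84.2 to 90.4 and to 90.0 to 103, with none of the 3 tested called. Of 5 meiocyte genes, SDS and SYN1 had no lines that were used, and the other 3 summed to 10.8 to 18.3 in non-carriers and 3.98 to 12.3 in carriers. The 1 meiocyte gene tested was not called. Of 5 meristem genes, CLV3 had no such lines, and the other 4 summed to 116 to 127 and to 89.0 to 118, with 2 called lower. Fewer cells of a type and fewer footprints per cell cannot be told apart in such tissue.

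The remaining genes did not pass the test. They lie at chr1:17885633-17892596 (AGO1), chr1:11181504-11185396 (AGO2), chr2:11536502-11542391 (AGO4), chr4:6780449-6784632 (RDR2), chr1:23416-31120 (DCL1) and chr4:11185936-11191123 (HEN1). AGO1, the main microRNA effector, ranged from a CPM of 38.3 to 53.8 in non-carriers and from 46.1 to 55.8 in carriers (log2 0.10 ± 0.16). AGO2, which takes part in antiviral defence, had a CPM of 36.5 and 35.5 (WT), 39.3 and 24.7 (hot3-2), 28.1 and 25.9 (dcl2 dcl4) and 43.6 and 32.4 (triple mutant) (log2 0.16 ± 0.20). RDR2, which starts the small RNAs of the DNA methylation pathway, ranged from a CPM of 17.0 to 35.4 over the 8 libraries (log2 -0.08 ± 0.23). AGO4, DCL1 and HEN1 had 3 to 41 P sites in a library, and standard errors of 0.34 to 0.47 on the log2 scale. At this depth AGO4 (-0.33 ± 0.34), DCL1 (-0.37 ± 0.45) and HEN1 (0.92 ± 0.47) gave no difference beyond the spread.

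The same comparison was then read in each background. Against WT, hot3-2 changed 1 of the 9 genes, AGO5 (log2 -0.62 ± 0.19, adjusted p = 0.0176), where 14.5% of all genes were called. Without WT replicate 2 the AGO5 difference was -0.48 (adjusted p = 0.165), without hot3-2 replicate 1 -0.72 (adjusted p = 0.0728) and without hot3-2 replicate 2 -0.52 (adjusted p = 0.137), and in each case the call was lost. In the dcl2 dcl4 background, hot3-2 again changed AGO5 alone (-0.68 ± 0.22, adjusted p = 0.0333), where 8.78% of all genes were called. That call was lost without dcl2 dcl4 replicate 2 (-0.49, adjusted p = 0.372), without triple mutant replicate 1 (-0.78, adjusted p = 0.115) and without triple mutant replicate 2 (-0.53, adjusted p = 0.366). RDR1 stood at 0.48 ± 0.22 against WT (adjusted p = 0.138), where it was called without hot3-2 replicate 1 (0.85, adjusted p = 0.0169) and stood at 0.21 without hot3-2 replicate 2 (adjusted p = 0.699), and at 0.39 ± 0.23 in the dcl2 dcl4 background (adjusted p = 0.352).

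**Figure D3:**
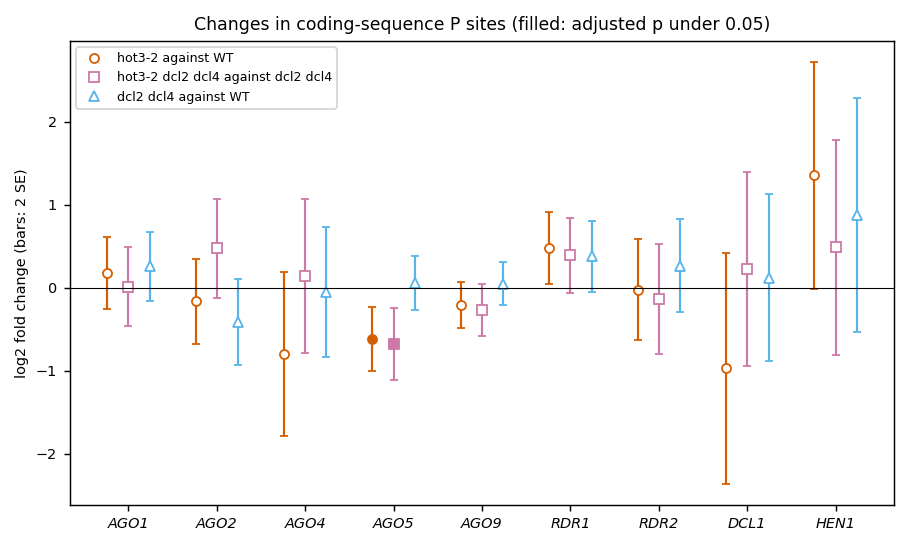
Log2 fold changes of coding-sequence P sites for the 9 genes in hot3-2 relative to WT, in the triple mutant (hot3-2 dcl2 dcl4) relative to dcl2 dcl4, and in dcl2 dcl4 relative to WT. Bars span 2 standard errors on each side, and filled symbols mark an adjusted p under 0.05 over all 13303 genes. The filled symbols are those of AGO5, at -0.62 in hot3-2 and at -0.68 for the triple mutant relative to dcl2 dcl4.

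The effect of the dcl2 dcl4 mutations on the same genes was asked next. None of the 9 genes was called in dcl2 dcl4 against WT with limma voom, where 5.35% of all genes were, and none of the 9 had an unadjusted p under 0.05. The log2 values ran from -0.41 ± 0.26 for AGO2 to 0.88 ± 0.70 for HEN1, with 0.38 ± 0.22 for RDR1, 0.26 ± 0.21 for AGO1 and 0.05 ± 0.16 for AGO5. In the triple mutant against hot3-2, where 1.77% of all genes were called, none of the 9 was, nor had any an unadjusted p under 0.05, with AGO5 at -0.01 ± 0.24 and RDR1 at 0.29 ± 0.23. Whether the hot3-2 effect differed between backgrounds was tested by the interaction, which called 1.17% of all genes and none of the 9, also at an unadjusted p under 0.05. For AGO5 the interaction was -0.06 ± 0.29, so that 2 standard errors spanned -0.64 to 0.52, and for AGO2 it was 0.64 ± 0.39 (adjusted p = 0.644). The trend version of limma and the other alternatives also called none of the 9 in these 3 comparisons.

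Beyond these members, 45 other small RNA pathway genes were examined in 3 groups. Of the 26 that were tested, 3 were called in the mean hot3-2 effect, against 17.8% of all genes (8.19% higher and 9.61% lower). Of 16 genes for microRNA biogenesis and turnover, 12 were tested, and 1 rose in the mean hot3-2 effect. This was CDC5, a MYB-related protein that promotes transcription of microRNA genes (log2 0.55 ± 0.10, adjusted p = 1.04e-05). Its CPM was 121 and 111 (WT), 172 and 177 (hot3-2), 135 and 128 (dcl2 dcl4) and 162 and 216 (triple mutant). Carriers and non-carriers did not overlap in CDC5, nor in XRN3 and RDM1 below, where 7.13% of all genes showed no overlap in this direction. These genes are named because they were called, so this is no separate support. Of 15 genes for small interfering RNAs and RNA decay, 7 were tested and 1 rose. XRN3, a nuclear 5′ to 3′ exonuclease, had a CPM of 83.2 and 88.4 (WT), 112 and 107 (hot3-2), 83.9 and 80.5 (dcl2 dcl4) and 121 and 117 (triple mutant) (log2 0.45 ± 0.12, adjusted p = 0.00272). In hot3-2 against WT alone XRN3 was not called (0.36 ± 0.16, adjusted p = 0.123, limma voom). In the dcl2 dcl4 background it was called (0.53 ± 0.17, adjusted p = 0.0372, limma voom). Of 14 genes for RNA-directed DNA methylation, 7 were tested and 1 rose. RDM1, a component of the complex that recruits the polymerase, had a CPM of 23.9 and 10.5 (WT), 35.3 and 59.8 (hot3-2), 23.2 and 33.1 (dcl2 dcl4) and 46.8 and 38.5 (triple mutant) (log2 1.03 ± 0.21, adjusted p = 1.05e-04). The RDM1 call was lost in 28 nt footprints (0.75, adjusted p = 0.0809) and without its 3 highest codons (0.48, adjusted p = 0.322), and in the dcl2 dcl4 background alone RDM1 was not called (0.61 ± 0.30, adjusted p = 0.253). No gene of the 3 groups was called lower in the mean hot3-2 effect with limma voom, where 9.61% of all genes were, and none was called in dcl2 dcl4 against WT, where 5.35% of all genes were and 2 of the 26, both in the third group, had an unadjusted p under 0.05. The group medians in the mean hot3-2 effect were 0.11, 0.28 and 0.02 in the same order, beside -0.02 over all genes.

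The position of footprints on the transcript was compared next. At the start codon, hot3-2 raised the share of P sites in most of the 2096 genes tested. These had a mean of at least 1 start codon P site per library, which a gene could reach through the carriers alone. AGO9 was the one member with enough start codon P sites to be tested. Its start codon share, P sites on the ATG among those of the coding sequence, was 0.23% (1 of 435) and 1.57% (6 of 381) in WT, and 5.14% (13 of 253) and 7.87% (17 of 216) in hot3-2. Wilson 95% intervals ran from 0.0406% to 1.29% and from 0.724% to 3.39% in WT, and from 3.03% to 8.59% and from 4.97% to 12.2% in hot3-2. In dcl2 dcl4 the share was 2.28% (7 of 307, interval 1.11% to 4.63%) and 1.16% (4 of 346, interval 0.450% to 2.93%). The triple mutant libraries disagreed on the ATG itself. Replicate 1 had 0 of 150 P sites there, which allows a share of up to 2.00% by the limit of 3 counts. It had 6 P sites on the codon just upstream, described below. Replicate 2 had 10.6% on the ATG (20 of 189, interval 6.96% to 15.8%). The mean hot3-2 effect was a log2 odds ratio of 2.37 (adjusted p = 0.00806), where 57.1% of 2096 genes were called and the median over all of them was 2.36. Without triple mutant replicate 2 it was 0.24 (adjusted p = 0.797), and without hot3-2 replicate 2 it was 2.22 (adjusted p = 0.0662). The mean dcl2 dcl4 effect, which called 1.38% of genes, was 0.42 in AGO9 and was not called.

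The lengths of the footprints at and next to the AGO9 start codon were then examined. Of the 68 AGO9 start codon P sites, 41 came from 21 nt and 7 from 28 nt footprints, and they formed 17 distinct footprints when identical ones within a library were counted once. In the 3 libraries in which 21 nt footprints had a P site at 9 nt, AGO9 had 4, 5 and 6 P sites on the codon just upstream of the ATG, all 15 from 21 nt footprints, and it had none there in the other 5. Of the start codon P sites in those 3 libraries, none came from 21 nt footprints. With the codon on each side of the ATG included, the counts were 1 and 6 (WT), 13 and 17 (hot3-2), 11 and 9 (dcl2 dcl4) and 6 and 20 (triple mutant). The log2 odds ratio was then 2.14 (adjusted p = 1.32e-04). Within the 5 libraries of the 12 nt position, all 3 carrier libraries (13, 17 and 20) exceeded both WT libraries (1 and 6). Within the other 3, the 1 carrier library had 6 beside 11 and 9, or 3.85% beside 3.54% and 2.56% of P sites. With the position as a covariate, the effect at the ATG was not called (adjusted p = 0.797). Its log2 odds ratio of 2.37 was computed from the counts without the covariate and so was not adjusted by it. The position differed within a genotype only between the 2 triple mutant libraries. This fit thus acts much like leaving out triple mutant replicate 2, is no separate check, and cannot tell the position apart from that library. The effect was not called in 26 to 29 nt footprints (log2 1.04, adjusted p = 0.458). No other member with a start codon in frame exceeded 7 start codon P sites over the 8 libraries. On the codon just upstream of the ATG, AGO2 had 7 P sites and RDR1 had 3 in hot3-2 replicate 2, a library of the 12 nt position. RDR2 had 1 there in dcl2 dcl4 replicate 2 and 1 in triple mutant replicate 2.

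**Figure D4:**
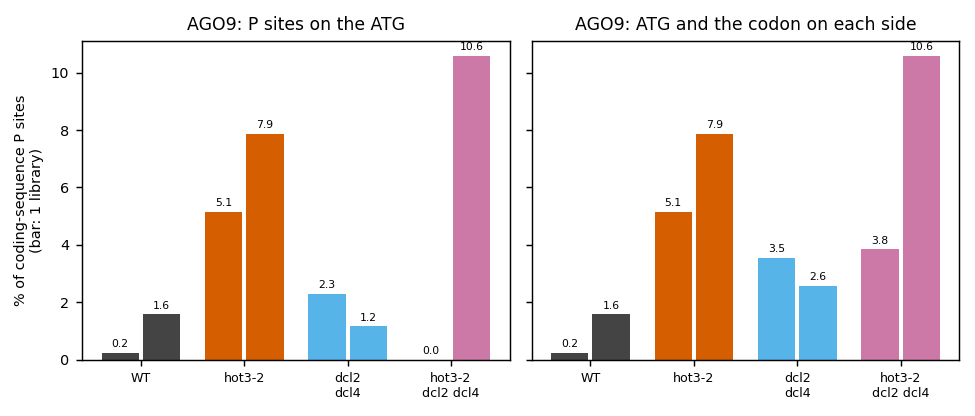
Share of AGO9 P sites on the start codon in each library, as a percentage. The left panel counts the ATG alone among coding-sequence P sites, and the right panel adds the codon on each side to both counts. The 2 hot3-2 libraries reach 5.1% and 7.9%, and triple mutant replicate 1 goes from 0.0% to 3.8% once the neighbouring codons are counted.

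In the 5′ UTR, 4 members could be tested and the quasi-binomial model called none, against 23.8% of 3040 genes in the mean hot3-2 effect and 3.82% in the mean dcl2 dcl4 effect. At an unadjusted p under 0.05, AGO1 passed in the first and AGO2 and AGO9 in the second. AGO2 had 10 (WT), 8 (hot3-2), 0 (dcl2 dcl4) and 0 (triple mutant) 5′ UTR P sites, and AGO9 had 2, 0, 10 and 7 in the same order. Both genes met the minimum mean of 1 per library only through the groups where they were high. Their p-values are therefore no support for a difference. AGO1, read from its deposited start, had 28 (WT), 20 (hot3-2), 8 (dcl2 dcl4) and 28 (triple mutant) 5′ UTR P sites (log2 odds ratio of the mean hot3-2 effect 1.17, adjusted p = 0.0981). All 18 5′ UTR P sites of AGO2 came from WT and hot3-2, and 8 of them from hot3-2 replicate 2. RDR1 had 12 in all, none of them in WT. The 19 of AGO9 lay mostly in the libraries of the 9 nt position, which held 15 of them on the codon just upstream of the ATG. When triple mutant replicate 2 was left out, the log2 odds ratio of the mean dcl2 dcl4 effect of AGO9 was 3.97, against 3.38 (adjusted p = 0.112) with it. Without that library, the 9 nt position and the dcl2 dcl4 mutations fall on the same libraries and cannot be told apart. With all 8 libraries this AGO9 effect was not called, either without the position as a covariate or with it, so the covariate adds nothing here.

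The share of P sites before the midpoint of the coding sequence, taken without its first 15 and last 5 codons, showed no called change in the 4 members tested. None of AGO2, AGO5, AGO9 and RDR1 was called by the quasi-binomial model, beside 1.2% of 4986 genes in the mean hot3-2 effect and 2.19% in the mean dcl2 dcl4 effect. AGO2 had an unadjusted p under 0.05 in the first of these (log2 odds ratio -0.85, adjusted p = 0.393). For AGO9 the values were -0.22 and -0.35, and for AGO5 0.11 and -0.04.

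Within a coding sequence the P sites were unevenly spread. The 3 codons with the highest mean share over the 8 libraries took, as the mean of the 8 library shares, 23.7% of the P sites in AGO9, 22.5% in RDR1, 14.2% in AGO2 and 6.92% in AGO5. The mean was 44.0% in AGO1, where 47 codons held P sites. The stretches around the leading codons are shown because these places carried the footprints on which the counts rest. Each is 27 nt of spliced coding sequence from TAIR10.1, 5′ to 3′, with the codon at the P site in capitals, and none of the 27 nt stretches occurred in another transcript of the files.
AGO9 codon 294: cgacgtgtcctcAAGaatctgagagtt
AGO9 codon 287: ggaatggactggAACaaggctcgacgt
RDR1 codon 675: ttgatcttgtgtGGCtataaacctgac
AGO2 codon 678: aaagacgatggcTATaagactctgaaa
AGO5 codon 199: aacgtgatgaaaCTTctggttaagaat
AGO1 codon 66: cgtggatatgggCAAccaccacaacag
AGO1 codon 58: cctcaacagggaGGTcgtggtggtcgt

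AGO9 codon 294 (chr5:7194781-7194807 for the stretch, plus strand) held 330 of 2277 P sites, 81.8% of them from 28 nt footprints. Its count was 79 and 56 (WT), 23 and 79 (hot3-2), 23 and 47 (dcl2 dcl4) and 10 and 13 (triple mutant). The share was highest in hot3-2 replicate 2 at 36.6% (interval 30.4% to 43.2%) and lay between 6.67% and 18.2% in the other 7 libraries, so the 2 hot3-2 libraries differed more from each other than from WT. Codon 287, 7 codons upstream and next to an intron, held 130 P sites, with 1.58% to 9.12% of a library. The same 330 P sites formed 29 distinct footprints over the libraries. Codon 858 (chr5:7197982-7198008 for its stretch) came next, with 85 P sites.

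RDR1 codon 675 (chr1:5095781-5095807, minus strand) held 85 of 803 P sites, and 4.95% to 16.4% of a library, with 11 of the 85 from 28 nt footprints. It was occupied in all 8 libraries, with 5 and 10 (WT), 8 and 18 (hot3-2), 12 and 13 (dcl2 dcl4) and 7 and 12 (triple mutant) P sites. Codon 296 held 56 P sites and none in triple mutant replicate 2. Codon 386 held 39.

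AGO2 codon 678 (chr1:11184087-11184113, plus strand) held 35 of 517 P sites. It had 3 and 2 (WT), 3 and 7 (hot3-2), 3 and 0 (dcl2 dcl4) and 13 and 4 (triple mutant), a share of 24.1% (interval 14.6% to 36.9%) in triple mutant replicate 1. Carriers averaged 13.9% and non-carriers 2.61%, with overlapping libraries, at a codon chosen by its mean share over these same libraries. Codon 551 held 14 P sites and codon 679 held 15. AGO2 shares 69 of its 3018 stretches of 28 nt with AGO3, and AGO9 shares 25 of 2664 with AGO8, so that counts in these places may mix the paralogs. The other 7 genes shared none with any other transcript of the files.

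AGO5 codon 199 (chr2:11872488-11872514, plus strand) held 38 of 1172 P sites. Non-carrier libraries had 9, 13, 8 and 5, and carrier libraries 1, 1, 1 and 0. Its share was 2.37% to 5.33% in non-carriers and 0% to 1.33% in carriers, where the 0 of 68 in triple mutant replicate 2 allows up to 4.41%. The codon led AGO5 by its mean share over these same libraries, through a mean of 4.22% in non-carriers beside 0.86% in carriers. The gap is therefore not a test, and how many codons show such a gap was not counted. Without the 3 leading codons, the mean hot3-2 effect on AGO5 was -0.53 and stayed called. Codons 433 and 426 held 27 and 22 P sites.

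In AGO1, codon 66 (chr1:17891683-17891709, minus strand) held 152 of 765 P sites and codon 58 (chr1:17891707-17891733) held 122, in every library. Codon 18 held 65, and its share ran from 1.61% to 17.0%.

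AGO1 and AGO2 carry a known microRNA site, and the pairs are shown to place the footprints relative to it. The microRNA is given as RNA with its seed, bases 2 to 8, in capitals, and the site as DNA of the transcript with positions that form no Watson-Crick pair in the ungapped alignment in capitals, so that a G:U pair is also in capitals.
miR168a: uCGCUUGGugcaggucgggaa
AGO1 site: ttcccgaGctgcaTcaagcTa
miR403: uUAGAUUCacgcacaaacucg
AGO2 site: Ggagtttgtgcgtgaatctaa

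In TAIR10.1 miR168a comes from chr4:10578652-10578672 and miR403 from chr2:19415154-19415174, both on the plus strand. The AGO1 site (chr1:17891529-17891549, minus strand), in the coding sequence, begins 344 nt from the ATG and had 3 such positions against miR168a. The last AGO1 P site lay 201 nt from the ATG, so all 849 P sites of the gene were upstream of the site and none lay within 100 nt of it. The AGO2 site (chr1:11185223-11185243, plus strand) lies in the 3′ UTR, had 1 such position against miR403, and likewise had no P site within 100 nt. In DCL1 the best ungapped match to miR162a lies at codon 1017, beyond the last DCL1 P site at nt 1145. Density before and after these sites was therefore not comparable in any of the 3 genes.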

How the data were processed

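Deposited files listed 1 footprint per line with positions that the authors did not normalise: the transcript, the first nucleotide, the P site, the last nucleotide and the distances to the start and stop codons. The columns are nucleotide positions, and counts are numbers of lines tallied here. The submitters' processing notes name cutadapt and STAR. In their methods the authors used RiboTaper with offsets for 26, 27, 28 and 29 nt footprints. Handling of multi-mapping footprints and removal of duplicates are not given in the sources used here.

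Of 22567 transcripts, 22384 nuclear ones with a matching annotated coding sequence (TAIR10.1) were used, and the 5′ UTR length matched in 20455. P-site counts of all 8 libraries entered a fit by limma voom (version 3.58.1, under R 4.3.3), each genotype having its own mean. Scaling used trimmed M values (30% trimmed by fold change and 5% by abundance). A gene needed a total of 15 P sites and, after adjustment for depth, 10 of them in 2 or more libraries. CPM values are on this scale, and per-length levels use unscaled totals. Shares were fitted with a quasi-binomial model moderated by squeezeVar of limma, for genes with a mean of 50 P sites and, for start codon and 5′ UTR, 1 in the numerator per library. Log2 odds ratios had 0.5 added to each count. Calls were at an adjusted p of 0.05 (Benjamini-Hochberg over all genes tested). The fits of coding-sequence counts and of the start codon share were tested on simulated counts, for the mean hot3-2 effect alone. The other comparisons and shares were not simulated. Members, lists and codon rules were chosen with earlier results of these data known. All members were named, pathway genes where called in the mean hot3-2 effect or in dcl2 dcl4 against WT, and the 3 leading codons in members with a mean of 50 P sites. Wilson intervals (scipy 1.17.1) and the limit of 3 counts for a count of 0 cover counting error alone, and the sources used here give no molecular identifiers. Members' sequences and coordinates came from the RefSeq TAIR10.1 genome and annotation. Same-numbered libraries did not deviate together (r from -0.019 to 0.012), so numbers were not used as pairs. RNA-seq was not used here, so occupancy and mRNA level cannot be told apart.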

Additional observations from a re-analysis of the deposited data

How the results depend on the processing

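Of the 9 genes, the count called in hot3-2 against WT was 1 and went to 0 without the filter on low counts, in 28 nt footprints, after thinning to the smallest library, with the P-site position as covariate, and without the 3 highest codons, and ranged from 0 to 1 over the libraries left out in turn, where the 1 was RDR1 and not AGO5 without hot3-2 replicate 1. In the triple mutant against dcl2 dcl4 it went from 1 to 0 under total scaling, without the filter, in 28 nt footprints, without the first 15 and last 5 codons, with the covariate and without the 3 highest codons, and ranged from 0 to 1. In the mean hot3-2 effect it went from 2 to 1, with RDR1 lost, without the filter, in 28 nt footprints, after thinning, with the covariate and without the 3 highest codons, and ranged from 1 to 2. The AGO5 mean effect was called in 20 of 20 alternatives (log2 -0.74 to -0.53), and that of AGO9 in none (-0.37 to -0.13). The start codon share call of AGO9 went from 1 to 0 in 26 to 29 nt footprints, with the covariate and at a minimum mean of 10, and ranged from 0 to 1. The log2 odds ratio was 1.04 in 26 to 29 nt footprints, and 2.37 as reported under the other 2, where it is computed from the same counts. The covariate differed within a genotype only between the 2 triple mutant libraries. In the mean hot3-2 effect and the triple mutant against dcl2 dcl4, it thus acts much like leaving out triple mutant replicate 2. The 5′ UTR count for the mean dcl2 dcl4 effect stayed at 0 in the alternatives that kept all 8 libraries. Without triple mutant replicate 2, where the 9 nt position and the dcl2 dcl4 mutations coincided, the log2 odds ratio of AGO9 was 3.97.

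Direction turned in 116 of 1374 alternative values. In 110 of these the reported value had an unadjusted p over 0.32 and so no clear direction. In the other 6 it was at most 0.32, and none of them was called. In 28 nt footprints AGO2 stood at -0.11 in the triple mutant against dcl2 dcl4 (0.48 as reported). Without the 3 highest codons DCL1 stood at -0.024 in the triple mutant against hot3-2 and at -0.38 in the interaction (1.32 and 1.19 as reported). Over the libraries left out in turn, HEN1 in dcl2 dcl4 against WT ranged from -0.32 (without WT replicate 2) to 2.19, RDR1 in the triple mutant against hot3-2 from -0.072 (without hot3-2 replicate 1) to 0.56, and the before-midpoint share of AGO9 in the mean hot3-2 effect from -0.47 to 0.082 (without hot3-2 replicate 1). The cause of these changes was not tested.

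The replicate block changed no call of the 9 genes, with counts of 1, 1 and 2 in the 3 hot3-2 comparisons and an AGO9 start codon adjusted p of 0.0405. Leaving out the 3 highest codons, counting identical footprints once, and the fits on genes with 1 mRNA or with the annotated 5′ UTR length were chosen after seeing the data. Over all genes, calls in dcl2 dcl4 against WT numbered 712 (94 to 787 over the alternatives), in the triple mutant against hot3-2 236 (99 to 355), in the interaction 155 (19 to 170), in hot3-2 against WT 1928 (1130 to 1933), in the triple mutant against dcl2 dcl4 1168 (513 to 1371) and in the mean hot3-2 effect 2367 (1378 to 2422). Share calls in the mean hot3-2 effect numbered 1197 (436 to 1352) at the start codon, 724 (193 to 747) in the 5′ UTR and 60 (8 to 199) before the midpoint, and in the mean dcl2 dcl4 effect 29 (0 to 128), 116 (0 to 252) and 109 (12 to 151). Depth limited AGO4, DCL1 and HEN1, with 3 to 41 P sites in a library.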
